A study of Mus musculus with 9 samples.

Results

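The 35 genes described here fold, oxidise, translocate and degrade proteins of the endoplasmic reticulum or sense and transmit the unfolded protein response. They were chosen by gene symbol, and all 35 were found among the 21944 genes of the table and passed the filter on low values that left 12854 genes for testing. They comprise 9 chaperones and co-chaperones, 2 lectin chaperones, 6 disulphide isomerases and oxidases, 7 stress sensors and transcription factors, 7 factors of endoplasmic reticulum-associated degradation, 3 subunits of the translocon and its associated complex, and Wfs1. RNA was measured in 9 libraries in 3 groups of 3: liver metastases of N134-RHAMMB cells (metastases 1, 2 and 3), subcutaneous tumours of N134-RHAMMB cells (N134-RHAMMB tumours 1, 2 and 4) and subcutaneous tumours of N134 cells (N134 tumours 1, 2 and 3).

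The N134 cell line comes from a pancreatic neuroendocrine tumour of the mouse. The N134-RHAMMB line carries in its name RHAMMB, which is 1 isoform of RHAMM, a receptor for hyaluronan. All groups grew in NSG mice, strain NOD.Cg-PrkdcscidIl2rgtm1Wjl/SzJ, which lack mature T, B and natural killer cells but keep their own stroma, vessels and macrophages. Cells were given under the skin or through the tail vein, so the site of growth and the route of injection cannot be told apart. The labels give neither the number of clones behind each line, nor the promoter or species of the RHAMMB construct, nor the age of the mice. Nor is it stated whether each replicate is a different mouse. The p-values therefore describe the spread among these libraries, part of which may be technical. The question these comparisons address is how N134-RHAMMB growths in liver or under the skin, and N134 tumours under the skin, differ in RNA of the secretory folding machinery.

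Secretory and membrane proteins enter the endoplasmic reticulum through the Sec61 channel, are bound by chaperones of the Hsp70 and Hsp90 families and by sugar-reading lectins, and acquire disulphide bonds from protein disulphide isomerases that the Ero1 oxidases recharge. When unfolded chains accumulate, the membrane sensors IRE1 (gene Ern1), PERK (gene Eif2ak3) and ATF6 signal through spliced XBP1, through ATF4 and CHOP (gene Ddit3), and through cleaved ATF6, and they raise chaperone and degradation genes. Insulin-producing cells fold large amounts of proinsulin and depend on this system. Gene-level RNA values show neither the splicing of Xbp1 nor the cleavage or phosphorylation of the sensors.

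Promoter sequences are shown because the oxidases Ero1l and Ero1lb and the chaperones Hspa5 and Hsp90b1, pairs with related roles, had different levels across the groups, and because Dnajc3, Wfs1 and Ero1lb were the members that passed a test. Each is 300 bases of RefSeq GRCm38.p6, 250 before to 50 after the gene's start in RefSeq, read 5′ to 3′ on the gene's strand. Capitals mark matches to the endoplasmic reticulum stress element (ERSE, which is CCAAT, any 9 bases and CCACG, searched on both strands). In Hspa5 alone they also mark the core of the unfolded protein response element (UPRE, TGACGTG). The RefSeq start lay inside the deposited locus of Wfs1 (ending at 36989205), Hspa5 (starting at 34771970) and Hsp90b1 (ending at 86705509). Most of the Wfs1 window thus lay within that locus and not before it. The windows are Ero1lb at chr13:12565633-12565932 (plus strand), Ero1l at chr14:45318523-45318822 (minus strand), Hsp90b1 at chr10:86705395-86705694 (minus strand), Hspa5 at chr2:34771840-34772139 (plus strand), Dnajc3 at chr14:118937682-118937981 (plus strand) and Wfs1 at chr5:36988933-36989232 (minus strand).
Ero1lb: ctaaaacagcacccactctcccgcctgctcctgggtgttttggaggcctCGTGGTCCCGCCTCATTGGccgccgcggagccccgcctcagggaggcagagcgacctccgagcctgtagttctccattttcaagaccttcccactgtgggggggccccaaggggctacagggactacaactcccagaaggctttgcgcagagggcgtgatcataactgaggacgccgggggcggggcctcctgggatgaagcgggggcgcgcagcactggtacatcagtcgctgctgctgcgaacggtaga
Ero1l: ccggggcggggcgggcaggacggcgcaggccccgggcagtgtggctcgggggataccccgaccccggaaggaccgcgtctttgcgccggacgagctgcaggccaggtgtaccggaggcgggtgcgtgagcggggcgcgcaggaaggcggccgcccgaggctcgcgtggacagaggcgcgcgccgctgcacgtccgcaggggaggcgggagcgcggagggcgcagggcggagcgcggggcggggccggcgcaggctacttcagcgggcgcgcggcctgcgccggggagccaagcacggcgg
Hsp90b1: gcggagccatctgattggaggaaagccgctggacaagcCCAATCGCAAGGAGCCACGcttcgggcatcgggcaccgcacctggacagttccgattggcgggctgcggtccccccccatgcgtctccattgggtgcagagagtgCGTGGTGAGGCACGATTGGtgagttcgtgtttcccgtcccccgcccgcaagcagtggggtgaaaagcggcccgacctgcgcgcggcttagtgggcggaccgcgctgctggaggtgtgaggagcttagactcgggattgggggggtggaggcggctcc
Hspa5: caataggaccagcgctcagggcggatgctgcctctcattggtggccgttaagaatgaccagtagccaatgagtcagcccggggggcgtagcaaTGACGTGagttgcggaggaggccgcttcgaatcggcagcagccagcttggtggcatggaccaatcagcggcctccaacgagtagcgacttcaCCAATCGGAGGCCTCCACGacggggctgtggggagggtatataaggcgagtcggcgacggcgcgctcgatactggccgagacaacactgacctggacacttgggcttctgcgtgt
Dnajc3: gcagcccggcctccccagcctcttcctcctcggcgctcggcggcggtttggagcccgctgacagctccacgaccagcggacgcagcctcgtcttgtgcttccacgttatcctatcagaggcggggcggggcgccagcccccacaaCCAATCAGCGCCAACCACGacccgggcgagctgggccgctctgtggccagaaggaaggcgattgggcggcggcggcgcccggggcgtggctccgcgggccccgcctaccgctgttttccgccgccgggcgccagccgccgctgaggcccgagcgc
Wfs1: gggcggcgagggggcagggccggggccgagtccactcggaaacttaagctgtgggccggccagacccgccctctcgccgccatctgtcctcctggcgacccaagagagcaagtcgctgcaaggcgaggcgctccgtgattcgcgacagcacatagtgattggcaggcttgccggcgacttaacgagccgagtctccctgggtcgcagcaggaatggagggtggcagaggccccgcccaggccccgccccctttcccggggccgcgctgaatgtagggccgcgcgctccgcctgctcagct

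The ERSE is known as a site where the factor NF-Y reads CCAAT and ATF6 or XBP1 reads CCACG. Windows were found for 31 of the 35 members, 2 of them under a synonym (Ero1a for Ero1l and Ero1b for Ero1lb); Atf6, Derl1, Hyou1 and Manf had none. The ERSE occurred in 10 of the 31 members (32.3%), against 39 of all 32851 windows (0.119%) and 37 of 27025 gene symbols (0.137%). The members were chosen as genes of the response these factors drive. The shares therefore describe the list and are not a test. Hsp90b1 held a pair of them, and each of the others held 1. In Hspa5 the ERSE ended 47 bases before the RefSeq start, in Syvn1 26 bases before it, and in Ero1lb, where it lies on the other strand, 183 bases before it. The Hspa5 match lay inside the deposited locus of that gene. The matches are written below as the motif reads, with CCAAT and CCACG in capitals, to show that the spacer differs in every member.
Calr: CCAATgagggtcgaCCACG
Canx: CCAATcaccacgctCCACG
Creld2: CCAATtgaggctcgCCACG
Derl3: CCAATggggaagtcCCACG
Dnajc3: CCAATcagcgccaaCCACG
Ero1lb: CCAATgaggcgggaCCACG
Hsp90b1: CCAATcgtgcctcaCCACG
Hsp90b1: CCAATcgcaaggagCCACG
Hspa5: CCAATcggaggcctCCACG
Pdia6: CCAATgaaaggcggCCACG
Syvn1: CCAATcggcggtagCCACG

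The ERSE-II motif (ATTGG, any base and CCACG), which shares its CCACG with the ERSE and holds CCAAT on its other strand, occurred in Dnajb11 and Herpud1, 2 of 31 members, against 0.0365% of all windows. The UPRE core occurred in 1 of 31 members, Hspa5, against 2.01% of all windows, and did not overlap the ERSE there. The core of the amino acid response element (TGATGNAAT), a site known for ATF4, was in none of the 31 and in 0.965% of all windows. In all, 12 members held at least 1 of the 4 motifs. These are matches of letters in short windows and were not measured as binding sites.

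FPKM (fragments per kilobase of transcript, scaled to the mapped fragments of the library) was the deposited unit. It is a level per length, so levels of different genes can be set side by side. The highest mean over the 9 libraries was 484 FPKM for P4hb, the protein disulphide isomerase itself, followed by 468 FPKM for Calr and 423 FPKM for Hspa5, the Hsp70 chaperone BiP. The lowest was 5.56 FPKM for Trib3, a pseudokinase induced by ATF4 and CHOP. Mean levels were at least 100 FPKM for 14 members, between 10 and 100 FPKM for 16 and under 10 FPKM for 5, and all 35 were at or above 1 FPKM in every library. The median member had a mean of 58.3 FPKM, against 11.8 FPKM for the median gene tested. Together the members took 1.02%, 1.11% and 0.898% of the FPKM sum in metastases 1, 2 and 3, 0.983%, 1.003% and 0.927% in N134-RHAMMB tumours 1, 2 and 4, and 0.933%, 0.889% and 0.936% in N134 tumours 1, 2 and 3, so the 3 groups overlapped. The median SD of the members' log2 values over the 9 libraries was 0.184, against 0.236 for all genes tested. The genes were not matched for level, and the part of the members' higher level in this difference was not tested. A highest library at least 2 times the lowest was found for 6 members (Manf, Ero1lb, Dnajb9, Wfs1, Derl3 and Trib3).

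Each library held an estimated 14.6 to 17.9 M fragments (M for mega), at which a single fragment in 2 kb of transcript equals 0.0279 to 0.0342 FPKM, far below the level of any member. Ins2, which encodes insulin, had 21154 to 38504 FPKM, and 14 beta cell and neuroendocrine markers summed to 44023 to 49038 FPKM in metastases, 32473 to 38141 FPKM in N134-RHAMMB tumours and 38289 to 42298 FPKM in N134 tumours. Hmmr, the mouse gene for RHAMM, had 36.0, 40.0 and 43.3 FPKM in metastases, 49.2 to 51.3 FPKM in N134-RHAMMB tumours, against 39.2 to 44.9 FPKM in N134 tumours, and whether the table's Hmmr value takes in the construct is not given in the sources used here. Transcripts of 12 hepatocyte markers summed to 5056, 5283 and 5213 FPKM in metastases, against 299 to 406 FPKM in N134-RHAMMB tumours and 353 to 441 FPKM in N134 tumours, where Ttr, which islet cells also express, made up most of the sum. Skeletal muscle transcripts (7 markers) summed to 169 and 203 FPKM in N134-RHAMMB tumours 2 and 4, against 17.8 FPKM in tumour 1 and 8.27 to 22.4 FPKM in the metastases and N134 tumours. Fibroblast markers (9 genes) summed to 200 to 442 FPKM in metastases, 293 to 510 FPKM in N134-RHAMMB tumours and 654 to 912 FPKM in N134 tumours. Macrophage markers (9 genes) summed to 215 to 365 FPKM in metastases, 338 to 453 FPKM in N134-RHAMMB tumours and 466 to 795 FPKM in N134 tumours. Endothelial markers (6 genes) summed to 41.2 to 59.2 FPKM over all libraries and erythroid markers (5 genes) to 282 to 1947 FPKM, highest in N134 tumours. Of 6 acinar markers, whose sum stayed at or under 3.80 FPKM, Prss2 was listed at 0 throughout. Their part in the results was not tested. Values without N134-RHAMMB tumours 2 and 4 are given below, but they leave 1 library in that group and so cannot test the part of muscle. In bulk samples, fewer cells of a type and less RNA per cell cannot be told apart.

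N134-RHAMMB tumours were set against N134 tumours to see how the lines differed at 1 site. Ero1lb, the oxidase that is most abundant in insulin-secreting cells, was the only member that passed the test, and it fell. Chaperone, lectin and isomerase genes had mostly small positive differences that did not pass, and the ATF4 branch genes Atf4, Ddit3 and Trib3 had negative ones that did not pass. Differences are given in log2(FPKM + 1), a scale that understates the change of low genes. At an adjusted p below 0.05 in limma, over all genes tested, 1 of 35 members was called, against a background of 0.194% of all genes tested, 0.0778% higher and 0.117% lower. At an unadjusted p below 0.05 there were 6 members, 4 higher (Calr, Sdf2l1, Dnajc3 and Ssr4) and 2 lower (Ero1lb and Hsp90b1), which is 17.1% of the members against 12.8% of all genes, 5.8% higher and 7.03% lower. The 3 libraries of one group lay apart from the 3 of the other for 13 members (37.1%), against 25.3% of all genes, 10 of them higher (14% of all genes were) and 3 lower (11.3% of all genes were). The median log2 difference of the members was 0.11, with 24 positive and 11 negative, against a median of 0.01 over all genes, of which 52.3% were positive.

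Ero1lb (ENSMUSG00000057069, GRCm38 chr13:12565883-12609526, plus strand) had 51.2, 45.6 and 55.6 FPKM in metastases 1, 2 and 3 and 42.6, 47.2 and 42.9 FPKM in N134-RHAMMB tumours 1, 2 and 4, against 93.1, 71.5 and 74.9 FPKM in N134 tumours 1, 2 and 3. All 6 N134-RHAMMB libraries, whatever their site, lay below all 3 N134 tumours, and the tumours and metastases of the N134-RHAMMB line overlapped each other. The mean was 44.2 ± 2.57 FPKM in N134-RHAMMB tumours and 79.8 ± 11.7 FPKM in N134 tumours (SD, n = 3 each), a log2 difference of -0.83 (SE 0.12, limma adjusted p = 0.0365). Leaving out any 1 of the 6 subcutaneous tumours gave differences of -0.90 to -0.71 with limma adjusted p of 0.0984 to 0.215. Leaving out N134-RHAMMB tumours 2 and 4, which carry muscle transcripts, left 1 library in that group and gave -0.88. The call was also lost with the replicate number as a block (-0.80, adjusted p = 0.193) and with no filter on low genes (adjusted p = 0.0629). In metastases the mean was 50.8 ± 5.03 FPKM (SD, n = 3), a log2 difference of -0.64 from N134 tumours (SE 0.12, limma adjusted p = 0.00741), which passed under all 18 alternatives with adjusted p of 0.00658 to 0.0318. The 2 comparisons share the N134 tumours.

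Its paralog Ero1l, the oxidase found in most tissues, had a lower level and groups that overlapped, with 6.55, 6.65 and 5.95 FPKM in metastases and 6.42, 6.11 and 7.02 FPKM in N134-RHAMMB tumours, against 6.24, 6.44 and 5.34 FPKM in N134 tumours. The overlap held in all 3 comparisons, and the log2 difference between N134-RHAMMB and N134 tumours was 0.10 (SE 0.13, limma adjusted p = 0.806). The ratio of Ero1lb to Ero1l was 7.82, 6.86 and 9.34 in metastases and 6.64, 7.72 and 6.12 in N134-RHAMMB tumours, against 14.9, 11.1 and 14.0 in N134 tumours, so that every N134 tumour lay above every N134-RHAMMB library. Against P4hb, the isomerase that Ero1 oxidases recharge, Ero1lb stood at 8.88% to 10.9% in metastases, 8.84% to 9.57% in N134-RHAMMB tumours, against 16.4% to 19.0% in N134 tumours. Ins2 had 34621, 38131 and 38504 FPKM in metastases and 22775, 28390 and 21154 FPKM in N134-RHAMMB tumours, against 33317, 30636 and 34119 FPKM in N134 tumours. Like Ero1lb, it was lower in every N134-RHAMMB tumour than in every N134 tumour, but every metastasis lay above the N134 tumours. The fibroblast, macrophage and erythroid marker sums were lower in every N134-RHAMMB library than in every N134 tumour, as were Ero1lb and Hsp90b1. The part of cell content in these 2 genes was not tested.

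**Figure D1:**
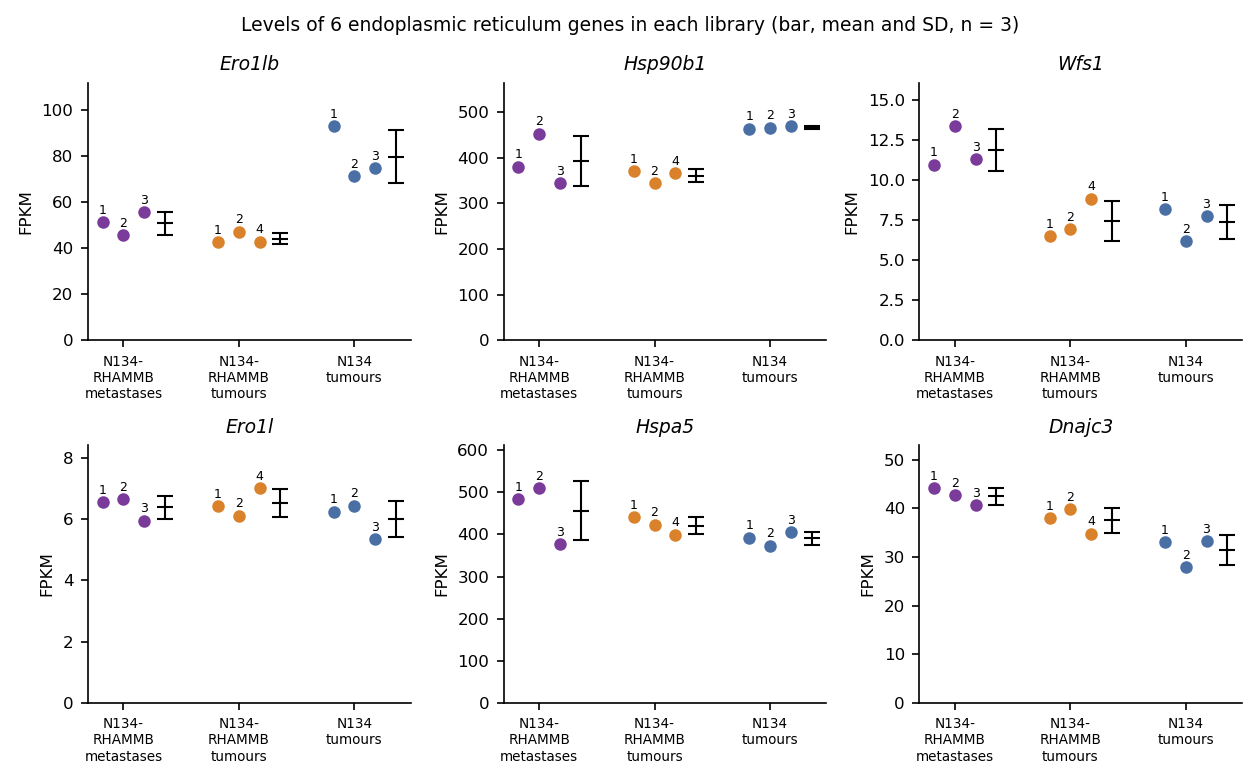
Level in FPKM (y axis, from 0) of 6 genes in each library, numbered by replicate, in metastases, N134-RHAMMB tumours and N134 tumours; bars are mean and SD, n = 3. Ero1lb and Hsp90b1 lay lower in every N134-RHAMMB library than in every N134 tumour, Ero1l and Hspa5 overlapped, and Wfs1 and Dnajc3 were highest in metastases.

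Hsp90b1 and Hspa5 encode the Hsp90 and Hsp70 chaperones of the lumen, and both promoters hold the ERSE, yet their levels ran differently. Hsp90b1 had 380, 452 and 344 FPKM in metastases and 371, 345 and 366 FPKM in N134-RHAMMB tumours, against 463, 465 and 469 FPKM in N134 tumours. Hspa5 had 483, 510 and 377 FPKM in metastases and 441, 423 and 400 FPKM in N134-RHAMMB tumours, against 393, 373 and 406 FPKM in N134 tumours. Every N134-RHAMMB library had less Hsp90b1 than every N134 tumour, whereas the Hspa5 groups overlapped.

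The Hsp90b1 log2 difference between N134-RHAMMB and N134 tumours was -0.37 (SE 0.11, limma adjusted p = 0.207), and that between metastases and N134 tumours was -0.26 (SE 0.11, adjusted p = 0.199). Neither passed, but without metastasis 2 they were -0.37 (adjusted p = 0.0447) and -0.36 (adjusted p = 0.0170). Metastasis 2 is in neither group of the first difference, so there only the shared spread and the adjustment changed. Leaving out any 1 of the 6 subcutaneous tumours gave first differences of -0.39 to -0.34 with limma adjusted p of 0.270 to 0.487. Both also passed with library weights, and the first with only the 2 groups compared. In all, the first passed under 3 of 18 alternatives and the second under 2. For Hspa5 the same differences were 0.11 (SE 0.12, adjusted p = 0.761) and 0.21 (SE 0.12, adjusted p = 0.354). The ratio of Hsp90b1 to Hspa5 was 0.786, 0.887 and 0.913 in metastases and 0.841, 0.815 and 0.917 in N134-RHAMMB tumours, against 1.18, 1.25 and 1.16 in N134 tumours. The ratio was below 1 in all 6 N134-RHAMMB libraries and above 1 in all 3 N134 tumours; no test was made of it.

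The other chaperones and co-chaperones gave no call between the subcutaneous tumours in the main fit. Of the 9 in this role, 8 had positive log2 differences between N134-RHAMMB and N134 tumours, with a median of 0.16 over the 9. The largest was 0.31 for Sdf2l1, a partner of the luminal DnaJ proteins (SE 0.12, limma adjusted p = 0.306), with means of 62.5 ± 3.07 FPKM in N134-RHAMMB tumours and 50.4 ± 6.86 FPKM in N134 tumours (SD, n = 3 each). Dnajb9, a DnaJ co-chaperone that restrains IRE1, averaged 35.1 ± 0.758 FPKM in N134-RHAMMB tumours and 28.3 ± 2.89 FPKM in N134 tumours, and Hyou1, a nucleotide exchange factor for BiP, averaged 118 ± 5.85 FPKM in N134-RHAMMB tumours and 96.6 ± 6.09 FPKM in N134 tumours (SD, n = 3 each). For these 3 genes the groups did not overlap, although none passed in the main fit. With library weights Sdf2l1 (limma adjusted p = 0.0129), Hyou1 (0.0204) and Dnajc3 (0.0344) passed. These weights also raised the count over all genes many times, as given at the end, so such passes are not particular to these members.

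The lectins Calr and Canx, which hold glycoproteins during folding, also lay higher in every N134-RHAMMB tumour than in every N134 tumour. Calr had 514, 470 and 484 FPKM in N134-RHAMMB tumours, against 442, 370 and 404 FPKM in N134 tumours, a log2 difference of 0.27 (SE 0.10, limma adjusted p = 0.302). Canx averaged 267 ± 10.5 FPKM in N134-RHAMMB tumours and 247 ± 7.08 FPKM in N134 tumours (SD, n = 3 each). Among the isomerases, the log2 differences of P4hb, Pdia3, Pdia4 and Pdia6 ran from 0.09 to 0.20, and none passed. The degradation genes spread around 0, from -0.37 for Derl3 (-0.14 without N134-RHAMMB tumour 2) to 0.20 for Derl2, and the translocon genes had -0.15 (Ssr1), -0.07 (Sec61b) and 0.26 (Ssr4, SE 0.10, limma adjusted p = 0.327), again with none passing. With library weights Calr (limma adjusted p = 0.00898) and Ssr4 (0.0146) passed, in the fit that also raised the count over all genes many times.

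The sensors and transcription factors showed no call in any comparison in the main fit, though some passed under alternative fits. Ern1, the IRE1 kinase and nuclease that splices Xbp1, had 12.3, 12.7 and 12.2 FPKM in metastases and 11.0, 8.74 and 13.1 FPKM in N134-RHAMMB tumours, against 9.57, 7.60 and 8.52 FPKM in N134 tumours. The metastases lay above all N134 tumours, and the N134-RHAMMB tumours overlapped both. The log2 difference between metastases and N134 tumours was 0.49 (SE 0.16, limma adjusted p = 0.0802). It passed under 3 of 18 alternatives, which were median-of-ratios scaling (adjusted p = 0.0211), quantile normalization (0.0253) and library weights (0.0416). Between N134-RHAMMB and N134 tumours it was 0.31 (limma adjusted p = 0.448), which passed only with library weights (adjusted p = 0.0396). Many more of all genes passed with those weights too.

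Eif2ak3, the PERK kinase that slows translation, had 14.9, 13.1 and 13.7 FPKM in metastases and 19.0, 14.3 and 15.9 FPKM in N134-RHAMMB tumours, against 14.4, 12.5 and 16.5 FPKM in N134 tumours. Atf6, the sensor released by cleavage in the Golgi, had 15.8, 20.5 and 15.6 FPKM in metastases and 15.5, 15.6 and 15.8 FPKM in N134-RHAMMB tumours, against 15.9, 12.9 and 14.7 FPKM in N134 tumours. For both sensors all 3 groups overlapped, and the limma log2 differences ran from -0.22 to 0.23.

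Xbp1, the factor of the IRE1 branch, had 165, 159 and 121 FPKM in metastases and 132, 113 and 122 FPKM in N134-RHAMMB tumours, against 112, 110 and 129 FPKM in N134 tumours. Metastases 1 and 2 were the highest of the 9 libraries, and metastasis 3 lay within the range of the tumours. The log2 difference between metastases and N134 tumours was 0.33 (SE 0.13, limma adjusted p = 0.171), and it was 0.47 (adjusted p = 0.0300) without metastasis 3. It was 0.25 (adjusted p = 0.363) without metastasis 1 and 0.27 (adjusted p = 0.250) without metastasis 2. Only 1 of 18 alternatives passed, that without metastasis 3, its lowest metastasis.

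Atf4, the factor made when PERK is active, had 99.2, 133 and 86.5 FPKM in metastases and 112, 90.9 and 105 FPKM in N134-RHAMMB tumours, against 128, 111 and 106 FPKM in N134 tumours. Ddit3, the pro-death factor CHOP downstream of it, had 22.7, 21.8 and 29.1 FPKM in metastases and 27.9, 20.4 and 29.5 FPKM in N134-RHAMMB tumours, against 32.4, 31.7 and 28.8 FPKM in N134 tumours. Groups overlapped for both. The Ddit3 log2 differences were -0.26 between N134-RHAMMB and N134 tumours (SE 0.16, limma adjusted p = 0.532) and -0.33 between metastases and N134 tumours (SE 0.16, adjusted p = 0.263).

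Trib3 averaged 5.30 ± 2.73 FPKM in metastases, 4.70 ± 0.40 FPKM in N134-RHAMMB tumours and 6.68 ± 0.620 FPKM in N134 tumours (SD, n = 3 each). Metastasis 3, at 8.44 FPKM, was the highest of the 9 libraries, while metastasis 1, at 3.40 FPKM, was the lowest. The N134-RHAMMB tumours lay below all N134 tumours, with a log2 difference of -0.43 (SE 0.25, limma adjusted p = 0.518) that did not pass. Between metastases and N134 tumours the difference was -0.36 (adjusted p = 0.465), and it was -0.70 (adjusted p = 0.0280) without metastasis 3. It was -0.15 (adjusted p = 0.800) without metastasis 1 and -0.25 (adjusted p = 0.624) without metastasis 2. Of 18 alternatives, only 1 passed, that without metastasis 3.

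**Figure D2:**
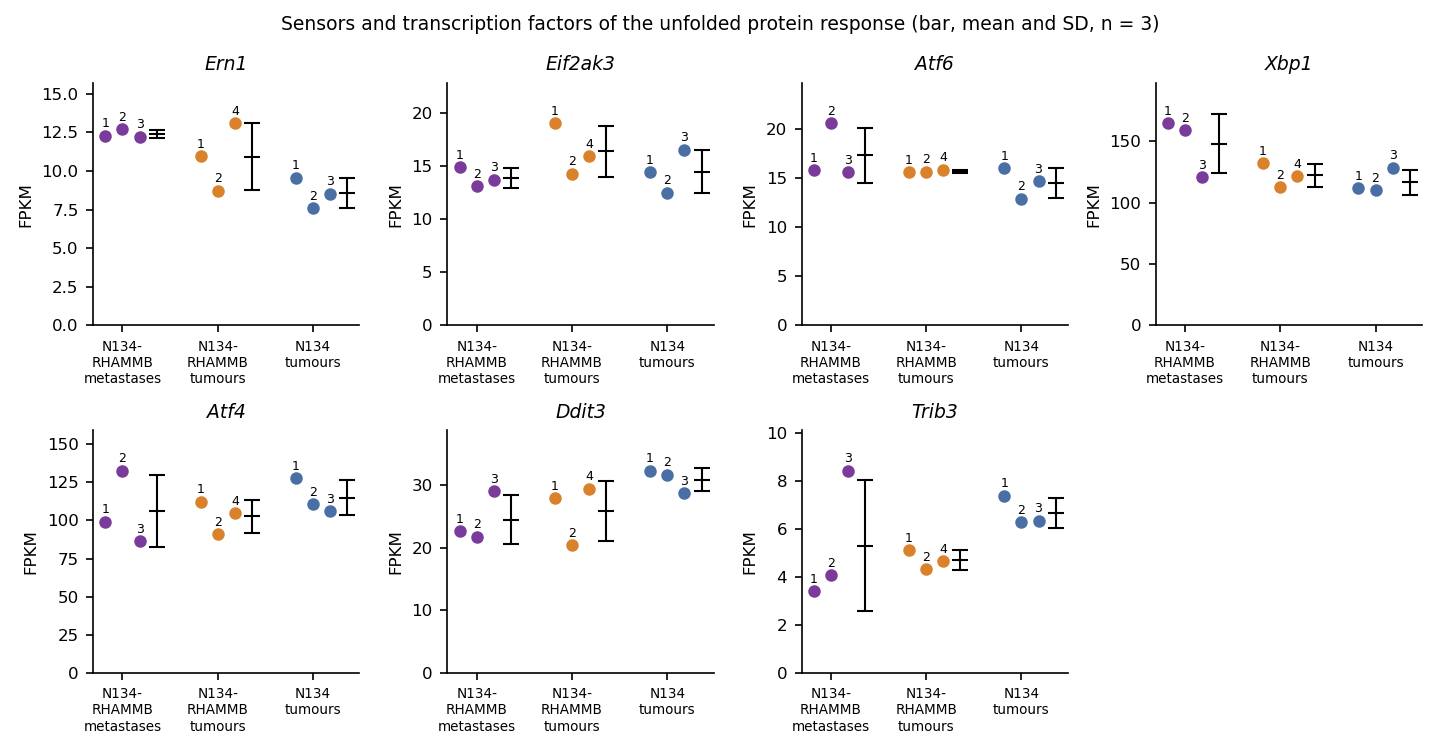
Level in FPKM (y axis, from 0) of the 7 sensors and transcription factors in each library, numbered by replicate, with mean and SD (bars, n = 3). Ern1 lay higher in the 3 metastases (12.2 to 12.7 FPKM) than in the 3 N134 tumours (7.60 to 9.57 FPKM), and Eif2ak3, Atf6, Xbp1, Atf4 and Ddit3 overlapped between the groups.

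Metastases were next set against N134-RHAMMB tumours, which compares 1 line at 2 sites. Wfs1, which encodes the membrane protein wolframin whose loss causes diabetes with optic atrophy in humans, was the only member that passed, and it rose. At an adjusted p below 0.05 in limma, 1 of 35 members was called, against 6.56% of all genes tested (5.04% higher and 1.52% lower), so the members' share was below the background. At an unadjusted p below 0.05 there were 2 members, Wfs1 and Derl1, both higher, against 16.7% of all genes, 8.13% higher and 8.53% lower. Groups did not overlap for 4 members (11.4%), all higher in metastases (Dnajc3, P4hb, Derl1 and Wfs1), against 8.8% of all genes that lay higher and 19.8% in either direction. The median log2 difference was 0.09, with 25 positive and 10 negative, against -0.06 over all genes, of which 39.5% were positive. Without metastasis 2 the members' median was 0.02, with 23 positive.

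Wfs1 (ENSMUSG00000039474, GRCm38 chr5:36966104-36989205, minus strand) had 11.0, 13.4 and 11.3 FPKM in metastases 1, 2 and 3 and 6.49, 6.94 and 8.83 FPKM in N134-RHAMMB tumours 1, 2 and 4, against 8.20, 6.20 and 7.75 FPKM in N134 tumours 1, 2 and 3. The metastases lay above all 6 subcutaneous tumours, whose 2 groups overlapped. The mean was 11.9 ± 1.31 FPKM in metastases, 7.42 ± 1.24 FPKM in N134-RHAMMB tumours and 7.38 ± 1.05 FPKM in N134 tumours (SD, n = 3 each).

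The Wfs1 log2 difference was 0.62 from N134-RHAMMB tumours (SE 0.16, limma adjusted p = 0.0469) and 0.62 from N134 tumours (SE 0.16, adjusted p = 0.0340). The comparison with N134-RHAMMB tumours passed under 4 of 18 alternatives and kept its call without N134-RHAMMB tumour 4. It was lost when any other single library was left out (limma adjusted p of 0.0516 to 0.210). Without N134-RHAMMB tumours 2 and 4 together, which leaves 1 N134-RHAMMB tumour, the difference was 0.78. The comparison with N134 tumours passed under 9 of 18 and was lost without any 1 N134 tumour or metastasis (adjusted p of 0.0564 to 0.139). Hepatocyte markers were higher in the same libraries by the amounts given above (Alb, the hepatocyte albumin gene, had 1504, 1410 and 1609 FPKM in metastases, against 0.482 to 0.720 FPKM in N134-RHAMMB tumours and 1.14 to 1.60 FPKM in N134 tumours), and their part in the Wfs1 difference was not tested.

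The degradation genes gave no call between metastases and N134-RHAMMB tumours in the main fit. Derl3, a derlin of the retrotranslocation channel with the largest difference after Wfs1, averaged 8.55 ± 2.03 FPKM in metastases and 5.99 ± 1.72 FPKM in N134-RHAMMB tumours (SD, n = 3 each), a log2 difference of 0.46 (SE 0.23, limma adjusted p = 0.366). The difference was 0.24 (adjusted p = 0.652) without N134-RHAMMB tumour 2 and 0.64 (adjusted p = 0.127) without metastasis 2. Its paralog Derl1 had 46.0, 41.6 and 46.4 FPKM in metastases and 38.4, 38.6 and 38.8 FPKM in N134-RHAMMB tumours, which did not overlap, with a log2 difference of 0.20 (SE 0.09, adjusted p = 0.286), while Derl2 differed by 0.01. Syvn1, the ubiquitin ligase of this pathway, differed by 0.24, Herpud1, its adaptor, by 0.15, Sel1l, its partner, by 0.09, and Edem1, a lectin that picks misfolded glycoproteins, by -0.12, none of them passing. With library weights Syvn1 (limma adjusted p = 0.0279) and Derl1 (0.0428) passed, in a fit that also raised the count over all genes. The translocon genes all had negative values here, -0.08 for Sec61b, -0.06 for Ssr1 and -0.12 for Ssr4, and none passed. The chaperones lay between -0.07 for Sdf2l1 and 0.17 for Dnajc3, with a median of 0.11, and none passed.

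**Figure D3:**
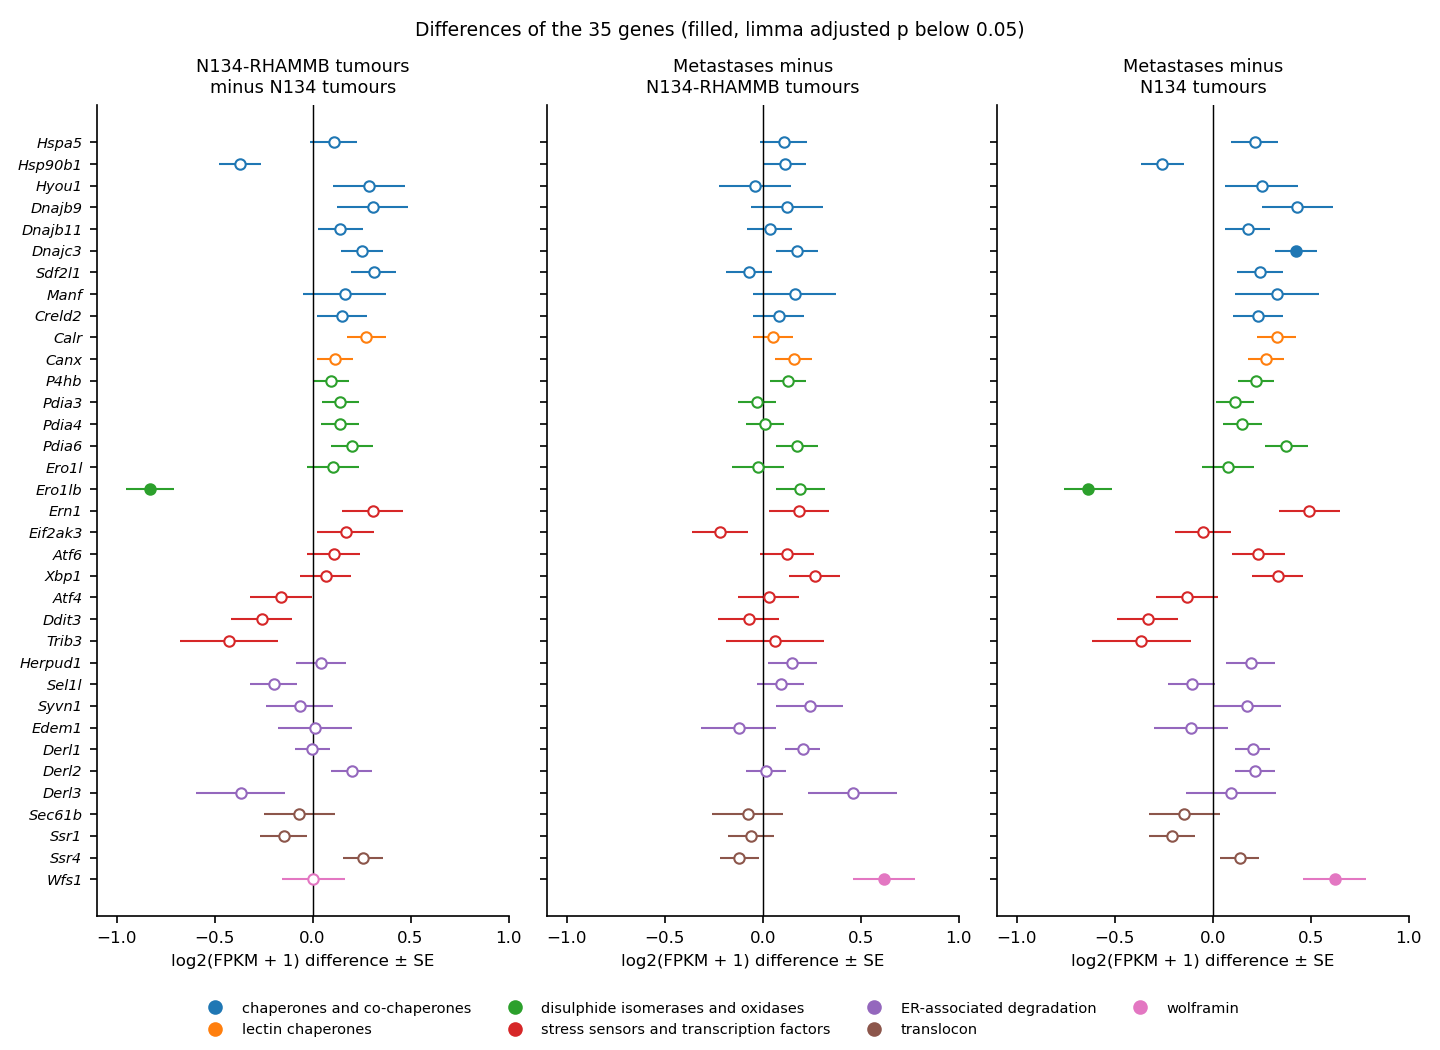
Difference in log2(FPKM + 1) with SE (x axis) for the 35 genes (rows, coloured by role) in the 3 comparisons, each the first group minus the second; filled points have a limma adjusted p below 0.05. The filled points are Ero1lb at -0.83 and -0.64, Wfs1 at 0.62 and 0.62, and Dnajc3 at 0.43.

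Metastases were last set against N134 tumours, which differ in both line and site. Wfs1 and Dnajc3 rose and Ero1lb fell. These 3 of 35 members (8.57%) compare with 9.93% of all genes tested that were called, 5.69% higher and 4.23% lower, so the members' share was near the background. At an unadjusted p below 0.05 there were 12 members (34.3%), 10 higher and 2 lower, against 21.4% of all genes, 9.72% higher and 11.7% lower. Groups did not overlap for 12 members (34.3%), against 25.7% of all genes. Of these, 10 were higher (Dnajb9, Dnajc3, Calr, Canx, P4hb, Pdia6, Ern1, Derl1, Derl2 and Wfs1), against 11.4% of all genes, and 2 were lower (Hsp90b1 and Ero1lb), against 14.3%. The median log2 difference was 0.19, with 25 positive and 10 negative, against -0.03 over all genes, of which 45.2% were positive, and 0.15 with 24 positive without metastasis 2. This comparison shares its groups with the other 2.

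Dnajc3 (ENSMUSG00000022136, GRCm38 chr14:118937932-118981702, plus strand) encodes a DnaJ co-chaperone of BiP that also inhibits PERK and related kinases. It had 44.2, 42.7 and 40.6 FPKM in metastases and 38.0, 39.9 and 34.8 FPKM in N134-RHAMMB tumours, against 33.1, 28.0 and 33.3 FPKM in N134 tumours. The 3 groups did not overlap, with metastases highest and N134 tumours lowest. The log2 difference between metastases and N134 tumours was 0.43 (SE 0.11, limma adjusted p = 0.0298), while those between metastases and N134-RHAMMB tumours (0.17, adjusted p = 0.484) and between N134-RHAMMB and N134 tumours (0.25, adjusted p = 0.362) did not pass. It passed under 10 of 18 alternatives and was lost when metastasis 1, N134-RHAMMB tumour 1 or any of the N134 tumours was left out (limma adjusted p of 0.0570 to 0.127).

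Just outside the threshold lay Pdia6, an isomerase that binds IRE1, and Calr. Pdia6 had 261, 257 and 239 FPKM in metastases and 220, 177 and 189 FPKM in N134 tumours, a log2 difference of 0.37 (SE 0.11, limma adjusted p = 0.0580). The difference passed under 3 of 18 alternatives. It was 0.46 (adjusted p = 0.0378) without N134 tumour 1 and 0.31 (adjusted p = 0.219) without N134 tumour 2. Calr had 511, 542 and 470 FPKM in metastases and 442, 370 and 404 FPKM in N134 tumours, a log2 difference of 0.33 (SE 0.10, adjusted p = 0.0767). In both the metastases lay above the N134 tumours. Canx (log2 difference 0.27, adjusted p = 0.108), P4hb (0.22, adjusted p = 0.197) and Dnajb9 (0.43, adjusted p = 0.201) did not overlap between these groups either.

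The remaining members had smaller or less regular values. Creld2, a secreted stress-induced protein, and Dnajb11, a BiP co-chaperone, differed by 0.23 and 0.18 between metastases and N134 tumours. Pdia3 and Pdia4 differed by 0.11 and 0.15. Among the translocon genes Ssr4 differed by 0.14, Sec61b by -0.14 and Ssr1 by -0.21. By role, the median log2 difference between metastases and N134 tumours was 0.24 for chaperones, 0.30 for the lectins, 0.13 for isomerases and oxidases, -0.05 for sensors and transcription factors, 0.17 for degradation factors and -0.14 for the translocon.

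**Figure D4:**
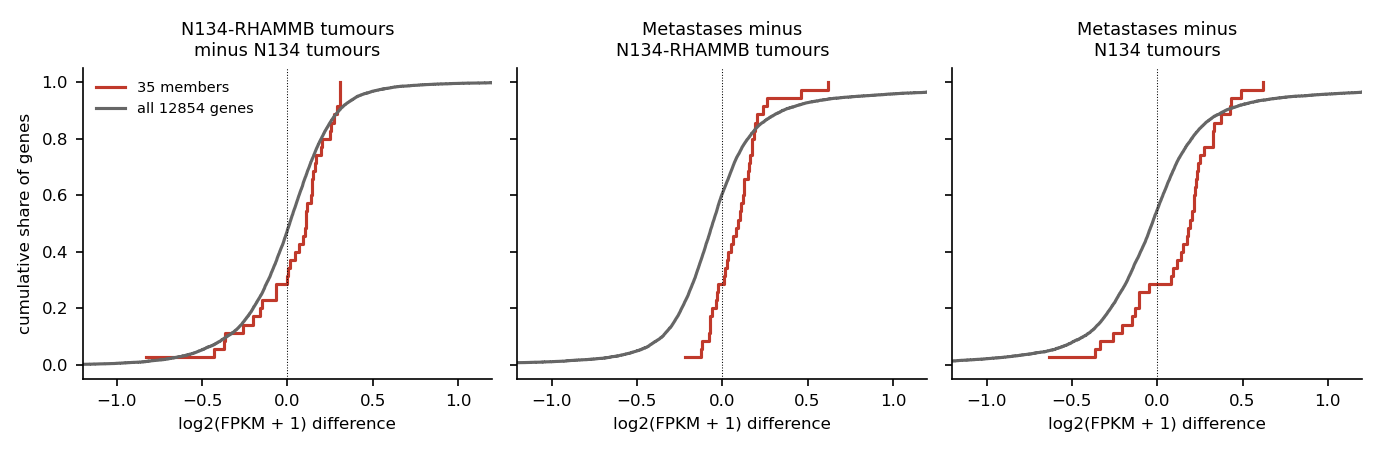
Cumulative share (y axis) of the 35 members (red) and of all 12854 genes tested (grey) by difference in log2(FPKM + 1) (x axis, cut at 1.2 either way), in the 3 comparisons. The members' medians (0.11, 0.09 and 0.19) lay to the right of those of all genes (0.01, -0.06 and -0.03), and few members lay beyond 0.5 either way.

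The 10 members with an ERSE in the window and the 21 with none were set side by side, as a description. Between metastases and N134-RHAMMB tumours all 10 with the motif had positive log2 differences, from 0.05 to 0.46 with a median of 0.17, and none passed. Without metastasis 2, 9 of 10 were positive, and the values ran from -0.016 (Creld2) to 0.64 (Derl3). Among the smallest were Calr (0.0030), Hsp90b1 (0.0055) and Hspa5 (0.021). The 21 without it, which include Dnajb11 and Herpud1 with the ERSE-II motif, had a median of 0.01, with 12 positive and 9 negative. Between N134-RHAMMB and N134 tumours the 10 split into 6 positive and 4 negative (Ero1lb, Hsp90b1, Derl3 and Syvn1), with a median of 0.11, against 0.09 for the 21. Between metastases and N134 tumours 8 of 10 were positive, with a median of 0.22, and the 2 negative ones were Ero1lb and Hsp90b1, against a median of 0.14 for the 21.

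Metastasis 2 stood apart from metastases 1 and 3 for part of the list. It was the highest of the 3 metastases for 15 of 35 members (42.9%), against 32.2% of all genes tested, the lowest of the 3 for 13 members (37.1%), against 48% of all genes, and the highest of all 9 libraries for 12 members (34.3%), against 16.1% of all genes. Manf, a secreted neurotrophic factor retained by BiP, had 125, 226 and 113 FPKM in metastases 1, 2 and 3 and 131, 139 and 125 FPKM in N134-RHAMMB tumours, against 121, 117 and 113 FPKM in N134 tumours. Hyou1 had 100, 165 and 91.5 FPKM in metastases and 123, 120 and 112 FPKM in N134-RHAMMB tumours, against 103, 91.8 and 94.5 FPKM in N134 tumours. On the log2 scale metastasis 2 exceeded the mean of metastases 1 and 3 by 0.93 for Manf, 0.77 for Hyou1, 0.61 for Sec61b, 0.51 for Atf4 and 0.37 for Atf6. It was lower by 0.53 for Derl3, 0.49 for Syvn1 and 0.41 for Dnajb9. Without metastasis 2, the log2 difference between metastases and N134-RHAMMB tumours was -0.30 for Hyou1, against -0.04 with it, and -0.15 for Manf, against 0.16. Metastasis 2 had the highest estimated depth, 17.9 M fragments, and the lowest fibroblast and macrophage sums of the 3 metastases, 200 and 215 FPKM, whose part in these values was not tested.

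**Figure D5:**
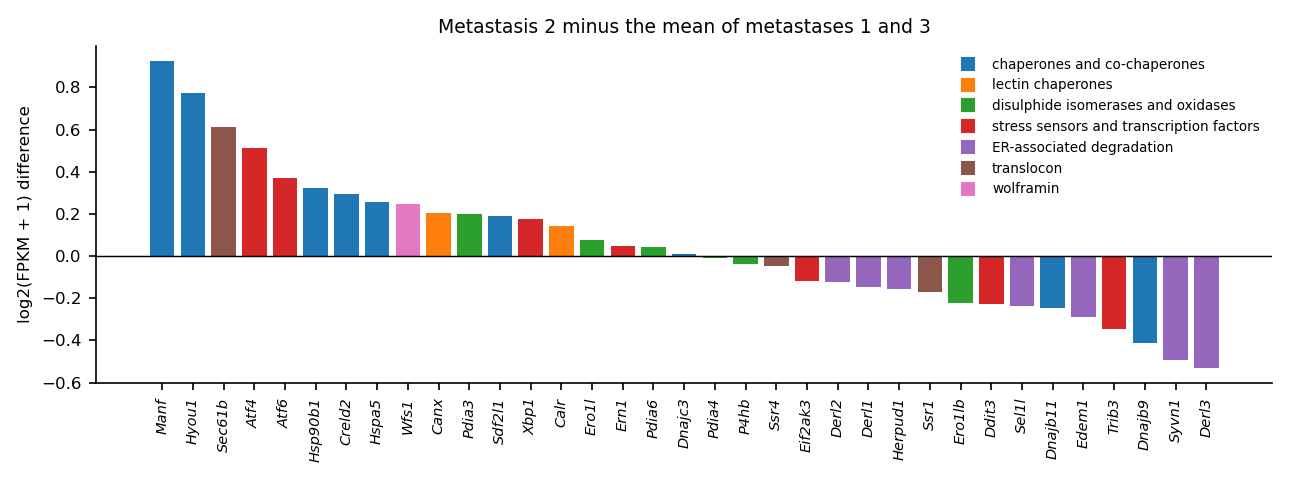
Difference in log2(FPKM + 1) between metastasis 2 and the mean of metastases 1 and 3 (y axis) for the 35 genes (x axis, ordered by value, coloured by role). Manf (0.93) and Hyou1 (0.77) lay at the top and Syvn1 (-0.49) and Derl3 (-0.53) at the bottom.

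The wider machinery was read from 5 lists holding 118 other genes of folding and redox, degradation, translocation and glycosylation, the PERK and ATF4 branch, and other membrane-bound factors, of which 117 were in the table and 111 were tested. Between N134-RHAMMB and N134 tumours 0 of the 111 passed in limma (0.194% of all genes did) and 14 had an unadjusted p below 0.05 (12.8% of all genes did). Between metastases and N134-RHAMMB tumours 1 passed (6.56% of all genes did) and 11 had an unadjusted p below 0.05 (16.7% of all genes did). Between metastases and N134 tumours 2 passed (9.93% of all genes did) and 17 had an unadjusted p below 0.05 (21.4% of all genes did). These lists were not recomputed under the alternatives.

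The gene that passed in both comparisons with metastases was Creb3l3, a membrane-bound transcription factor known from hepatocytes. It had 8.30, 5.42 and 10.4 FPKM in metastases and 2.96, 2.48 and 3.16 FPKM in N134-RHAMMB tumours, against 3.53, 3.13 and 3.25 FPKM in N134 tumours. The log2 difference was 1.19 from N134-RHAMMB tumours (SE 0.20, limma adjusted p = 0.00390) and 1.03 from N134 tumours (SE 0.20, adjusted p = 0.00833). The hepatocyte markers were higher in the same 3 libraries, and their part in this difference was not tested. The other was Serpinh1, the chaperone of collagen, which fell to 28.1, 20.3 and 35.1 FPKM in metastases, against 60.1, 74.1 and 48.6 FPKM in N134 tumours, a log2 difference of -1.12 (SE 0.22, limma adjusted p = 0.00868). It had 31.1, 33.4 and 45.7 FPKM in N134-RHAMMB tumours. The fibroblast marker sums were lower in metastases than in N134 tumours as well, and their part in this difference was not tested.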

How the data were processed

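Total RNA of 9 samples was sequenced. A Qiagen miRNeasy kit and QIAshredder columns were used for extraction, per the labels' protocols. The tools were Cufflinks 2.1.1, STAR 2.5.2 and bcl2fastq 2.19 with build GRCm38, per the submitters' processing notes, which do not state the role of each. The authors deposited 1 table of FPKM values for 22053 protein-coding rows, already divided by gene length and library size, so each value depends on what the rest of a library holds. 7 rows with a failed estimate and 102 repeats of a symbol at another locus were left out. Table coordinates had 1 added to the start.

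Group differences were tested on log2(FPKM + 1) of the deposited values with limma 3.58.1 in R 4.3.3, in 1 model over all 9 libraries (6 residual degrees of freedom, intensity trend, 2-sided, Benjamini-Hochberg over the 12854 genes that reached 1 FPKM in 3 or more libraries, adjusted p below 0.05). The script was tested on simulated data. The value of a single fragment, read from the lowest values of 2728 genes whose only transcript has 2000 to 6000 nucleotides, gave the depth. Per-library values are given for members that passed, for Hspa5 and for the sensors and factors, and other members shown per library (Ero1l, Hsp90b1, Calr, Pdia6, Derl1, Manf, Hyou1) were set beside them or chosen after their values were seen. Members and lists were chosen with earlier results of these data known. Alternatives were another pseudocount, filters, scalings, only the 2 groups compared, library weights, a replicate block, each library left out and, added after seeing the data, N134-RHAMMB tumours 2 and 4 left out. That last fit leaves 1 library in the N134-RHAMMB tumour group. Promoter windows come from RefSeq. Figures were drawn in Python 3.11.15.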

Additional observations from a re-analysis of the deposited data

How the results depend on the processing

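Members called were 1 in N134-RHAMMB against N134 tumours (the first comparison), 1 in metastases against tumours of the same line (the second) and 3 in metastases against N134 tumours (the third). With no filter the first 2 counts were 0 and 0, with a pseudocount of 0.1 the second was 0, and with a mean of at least 5 FPKM it was 0. With quantile normalization the third was 6. Fits of only the 2 groups compared gave 2, 0 and 1, and library weights gave 8, 3 and 8 of 35. In the first 2 comparisons the weights raised the counts over all genes as well, as given below. With weights these were Calr, Dnajc3, Ern1, Ero1lb, Hsp90b1, Hyou1, Sdf2l1 and Ssr4 in the first comparison. They were Derl1, Syvn1 and Wfs1 in the second, and Calr, Dnajb9, Dnajc3, Ern1, Ero1lb, Hsp90b1, Pdia6 and Wfs1 in the third. Counts without N134-RHAMMB tumours 2 and 4, a fit chosen after seeing the data, are not given, since it leaves 1 library in that group. Leaving out each library in turn gave 0 to 2, 0 to 1 and 1 to 4. Over all genes the counts were 25, 843 and 1276. A mean of at least 5 FPKM gave 15, 347 and 594, of fewer genes tested. Only the 2 groups compared gave 169 in the first comparison, library weights 2629 in the first and 1950 in the second, and leaving out N134-RHAMMB tumours 2 and 4 gave 1 and 504. Leaving out each library gave 0 to 193, 650 to 1137 and 882 to 1571. Where no fewer genes or libraries entered, the cause was not tested. In the second comparison 648 genes were higher and 195 lower, against 630 and 314 with quantile normalization and 1014 and 936 with library weights. In the third, 732 were higher and 544 lower, against 758 and 821 with quantile normalization.

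Of 540 alternative values of named members, 480 kept direction and side of the threshold, 40 no longer passed, 6 newly passed and 14 changed sign, 0 of them past the threshold in either fit. Wfs1 in the first comparison (0.0041) was -0.013 with median-of-ratios scaling, -0.11 with library weights, -0.11 with the replicate block and -0.15 without N134-RHAMMB tumours 2 and 4, and ran from -0.11 to 0.083 when each library was left out. Atf4 in the second (0.03) was -0.18 with library weights and -0.11 without those tumours, and ran from -0.14 to 0.16 when each library was left out. Over the same fits Ddit3 in the second (-0.07) ran from -0.23 to 0.025, Eif2ak3 in the third (-0.05) from -0.15 to 0.044 and Atf4 in the third (-0.13) from -0.30 to 0.0027. Replicate numbers share only a number: the 7 same-numbered pairs had correlations of deviations of -0.0027 to 0.102, and 3 of 6 libraries of N134 tumours and metastases correlated best with their own number. With the number as a replicate block, members called were 0, 0 and 1 and genes called 1, 646 and 1097. Depth put every member far above the level of a single fragment.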
